A study of Mus musculus with 4 samples.

Results

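The Slc1a, Slc3a, Slc6a, Slc7a, Slc36a, Slc38a and Slc43a families hold most of the membrane carriers that move amino acids, and some related small molecules, into and out of mouse cells. Their genes were taken from the count table by name alone, as every symbol that opens with one of these 7 family names and a digit, which gave 66 of 24907 gene symbols. Of these, 63 are counted here as transporter genes. They include Slc3a1 and Slc3a2, which encode partner chains of carriers and not carriers. The other 3, Slc7a6os, Slc36a1os and Slc6a19os, are opposite-strand neighbours that carry a transporter's name, and they were left out of all summed levels. The RNA-seq libraries, 2 control and 2 c-FOS, were made from ASZ001, a cell line from a mouse basal cell carcinoma (BCC). Control cells carried an inducible vector without insert, and c-FOS cells carried the same kind of vector with the transcription factor c-FOS. Both groups were treated with doxycycline (Dox), which switches the vector on. The labels give neither its dose and duration nor whether either line is 1 clone or a pool. Without c-FOS cells that had no Dox, induction of c-FOS and other differences between the lines cannot be told apart. Nothing in the labels places the 2 libraries of a group in separate cultures, so the p-values reflect spread that may be technical.

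Amino acid carriers differ in what drives them. The Slc1a glutamate carriers, Slc6a and most Slc38a carriers use the sodium gradient to concentrate their substrates, and some Slc36a carriers use protons. Many Slc7a carriers, and Slc1a4 and Slc1a5, are exchangers that trade an internal amino acid for an external one. A subset of Slc7a proteins are light chains that reach the membrane only when joined to a glycoprotein heavy chain encoded by Slc3a1 or Slc3a2. In keratinocytes and carcinoma cells these carriers are known for supplying leucine and glutamine for growth, cystine for glutathione, and taurine as an osmolyte.

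The libraries held 28404841 to 32464123 counts. Fos was at 0.404 and 0.351 counts-per-million (CPM, scaled with edgeR's TMM factors) in the control libraries and at 297 and 313 CPM in the c-FOS libraries, as labelled. All 10 basal keratinocyte markers listed were expressed, and their summed level lay between 28402 and 28616 CPM in control and between 15752 and 16184 CPM in c-FOS libraries, with 7 of the 10 lower and 2 higher. The 6 BCC and Hedgehog markers summed to between 251 and 256 CPM in control and between 178 and 181 CPM in c-FOS libraries, with all 4 tested lower. Among markers of other cell types, all 3 tested leukocyte markers, all 3 tested endothelial markers and 3 of 4 tested fibroblast markers rose. These marker counts, at an adjusted p of 0.05 in edgeR, stand beside 33.8% higher and 33.4% lower among all genes tested. Such short lists do not show a change of cell type. The 8 fibroblast markers summed to between 5.40 and 5.65 CPM in control and between 17.7 and 19.1 CPM in c-FOS libraries, the 9 macrophage and leukocyte markers to between 17.0 and 18.9 against 41.5 to 45.0 CPM, and the 6 endothelial markers to 113 against 212 to 216 CPM. The 6 melanocyte markers summed to between 49.4 and 51.7 against 48.5 to 51.2 CPM. In these lists Csf1r, a macrophage receptor, rose by 5.87 on the log2 scale, Flt1, an endothelial receptor, by 1.85, and the fibroblast genes Col1a2 and Pdgfra by 2.67 and 1.46. Pdgfrb, of the same list, had 0 counts in control and 75.5 and 82 counts in c-FOS libraries. The smallest log2 fold change of a tested gene was 0.37 in the leukocyte, 0.31 in the endothelial and 0.83 in the fibroblast list. Others of the same lists, Thy1, Cd3e, Kdr, Emcn, Tyr and Mlana, had 0 counts in all 4 libraries, and Ptprc had at most 2.5 counts. The part of these shifts in the transporter results was not tested. In bulk RNA, fewer cells that express a gene and less of its RNA per cell cannot be told apart.

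Between c-FOS and control, the most abundant transporter transcript of the line fell by 50.3%, the glutamate, cystine and arginine carriers Slc1a3, Slc7a11 and Slc7a2 fell, and the serotonin carrier Slc6a4 rose. Of the 66 rows, 29 had enough counts to be tested, and 24 of these passed edgeR's quasi-likelihood test at an adjusted p of 0.05, 11 higher and 13 lower in c-FOS cells. That is 82.8% of the members tested, beside 67.2% of all 12780 genes tested, of which 33.8% were higher and 33.4% lower. The median log2 fold change was 0.04 over the members and -0.01 over all genes tested, and the median absolute log2 fold change was 0.27 and 0.32. The c-FOS and control libraries did not overlap in CPM for 26 of the 29 members and for 83.6% of all genes tested. A log2 fold change of at least 1 in size was reached by 6 members that passed, and by 15.5% of all genes tested. When the libraries were scaled by their totals alone, which moved the median of all genes to -0.14, the count of 11 higher members became 5, namely Slc6a4, Slc6a7, Slc1a4, Slc36a4 and Slc38a10.

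**Figure D1:**
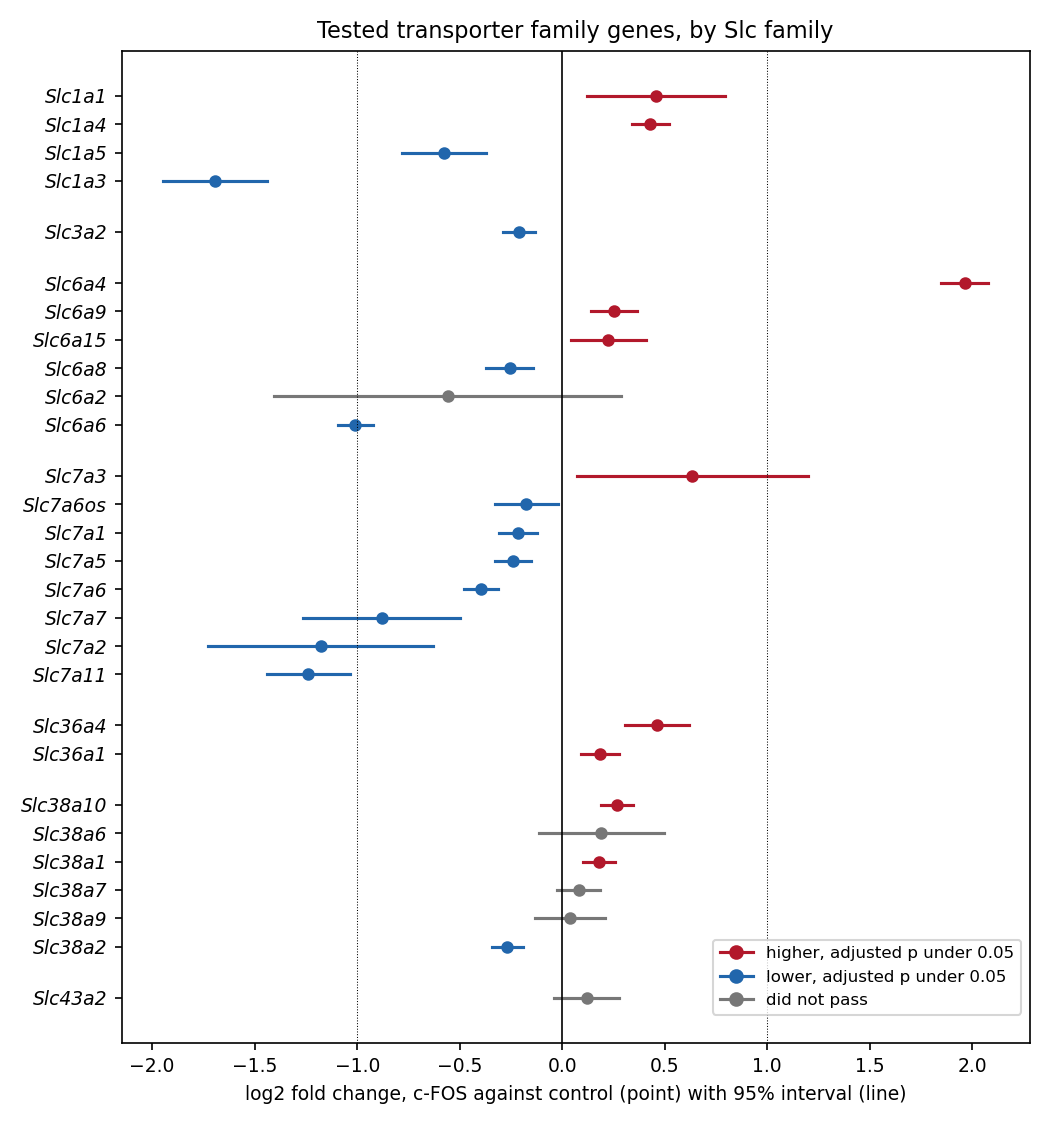
Log2 fold change of c-FOS against control for 28 of the 29 tested members, in rows grouped by Slc family, with 95% intervals as lines, and dotted lines at a log2 fold change of 1 and -1. Red and blue mark genes that were higher or lower at an adjusted p of 0.05 and grey those that did not pass. Slc6a7, at 0 in both control libraries, is not drawn. All Slc7a genes except Slc7a3 lie left of 0, while the Slc1a and Slc6a families have members on both sides.

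Slc6a6, the taurine carrier, was the most abundant member by mean level per gene length over the 4 libraries. It stood at 2175 and 2058 CPM in the control libraries and at 1049.9 and 1054 CPM in the c-FOS libraries. The c-FOS libraries lay close together, well below both control libraries. The fall was 1.01 ± 0.04 (SE) on the log2 scale, a halving (edgeR adjusted p = 7.67e-11). Its share went from 33.1% ± 0.697 to 20.0% ± 0.0227 (SD, n = 2 per group) of the summed transporter level, where the level is CPM per kilobase of gene model summed over the 63 transporter genes. By its mean level per length over the 4 libraries it ranked above 99.1% of the genes tested. Csad, which encodes a taurine-forming decarboxylase, did not pass, with a log2 fold change of -0.04.

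Slc6a4, the serotonin carrier and a member of the same sodium- and chloride-coupled family, moved the other way. It had 34.9 and 31.3 CPM in control libraries and 126 and 132 CPM in c-FOS libraries. Every c-FOS library was above every control library. The rise was 1.96 ± 0.05 (SE) on the log2 scale, or 3.90-fold (edgeR adjusted p = 2.81e-12), and 6.02% of all genes tested had a larger absolute change. Its share of the Slc6a family per gene length went from 2.70% ± 0.0732 to 15.6% ± 0.284 (SD, n = 2 per group).

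Slc1a3, a sodium-coupled glutamate and aspartate carrier best known from glia, had 16.7 and 20.8 CPM in control libraries against 5.86 and 5.76 CPM in c-FOS libraries. Here the control libraries differed from each other more than the c-FOS libraries did, yet the groups did not overlap. It fell by 1.69 ± 0.12 (SE) on the log2 scale (edgeR adjusted p = 2.77e-08). Slc7a11, the xCT light chain that imports cystine in exchange for glutamate, had 19.2 and 20.1 CPM in control and 8.90 and 7.75 CPM in c-FOS libraries. Both c-FOS libraries were below both control libraries, and the fall was 1.24 ± 0.09 (SE) on the log2 scale (edgeR adjusted p = 6.53e-08).

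Slc7a2, which encodes the cationic amino acid carrier CAT2, was a low transcript with 1.78 and 1.93 CPM in control and 0.629 and 0.985 CPM in c-FOS libraries. The c-FOS values differed more between libraries, but both were under the control values. It fell by 1.18 ± 0.25 (SE) on the log2 scale (edgeR adjusted p = 0.00106). In the GENCODE M21 gene models, 6.95% of the Slc7a2 exon bases lie opposite an exon of Gm26584, and the strand setting was not given. Slc6a7, a proline carrier known from brain, had 0 counts in both control libraries and 29 and 29.5 counts in the c-FOS libraries, which are 1.04 and 0.952 CPM. Taking 3 counts over both control libraries as the limit that a count of 0 allows, it was at least 20.2-fold higher in c-FOS cells (edgeR adjusted p = 3.96e-06). Slc6a7 was still among the lowest members tested, above 2.29% of the genes tested by level per length, and it was below the filter when 50 counts were required.

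**Figure D2:**
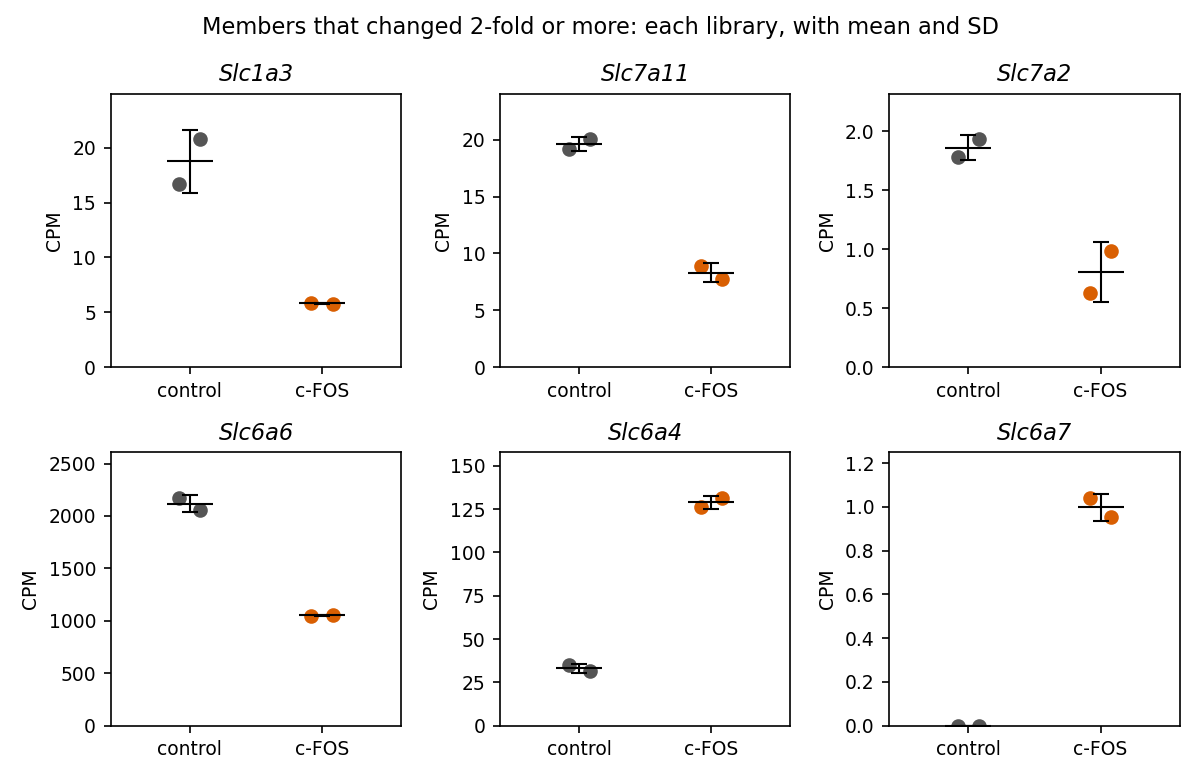
Counts-per-million (CPM) of the 6 members that passed with a change of 2-fold or more, one panel per gene with its own axis from 0. Points are single libraries, with the group mean and SD (n = 2 per group) as black lines. Control and c-FOS points are separated in every panel, and both control points of Slc6a7 are at 0.

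The sequence upstream of 4 tested members is shown. Slc6a4 had the largest rise measured against a control level above 0, and Slc1a3 and Slc7a11 had the 2 largest falls. Slc7a1 was the 1 of 19 tested members with upstream sequence that held an AP-1 letter pattern. c-FOS pairs with JUN proteins to form AP-1, which binds TGAGTCA, and the amino acid response element, bound by ATF4 with a partner, holds the letters TGATGNAA. Both were searched on both strands in the 250 bases before each RefSeq start site (build GRCm38.p6, while the counts were made on mm9), together with the cyclic AMP response element TGACGTCA and the antioxidant response element TGACNNNGC. Each run is 5′ to 3′ on the gene's strand and ends at the base before the start site, and capitals mark matches to these 4 patterns.
Slc6a4 (chr11:76998347-76998596, plus strand): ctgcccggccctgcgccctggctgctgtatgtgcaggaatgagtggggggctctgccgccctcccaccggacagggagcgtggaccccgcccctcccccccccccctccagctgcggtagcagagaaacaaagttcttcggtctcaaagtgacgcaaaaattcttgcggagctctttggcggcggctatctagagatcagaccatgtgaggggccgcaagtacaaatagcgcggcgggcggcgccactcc
Slc1a3 (chr15:8710808-8711057, minus strand): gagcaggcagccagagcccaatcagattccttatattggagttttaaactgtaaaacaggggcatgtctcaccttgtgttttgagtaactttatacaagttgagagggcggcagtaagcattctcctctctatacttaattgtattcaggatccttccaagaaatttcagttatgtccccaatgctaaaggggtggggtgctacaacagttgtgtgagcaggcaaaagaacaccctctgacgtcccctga
Slc7a11 (chr3:50443614-50443863, minus strand): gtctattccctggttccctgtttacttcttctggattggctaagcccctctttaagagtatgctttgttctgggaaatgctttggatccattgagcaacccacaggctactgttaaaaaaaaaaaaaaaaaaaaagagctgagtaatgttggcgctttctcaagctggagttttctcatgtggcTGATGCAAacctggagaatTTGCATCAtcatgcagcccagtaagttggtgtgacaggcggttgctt
Slc7a1 (the more upstream of its start sites, chr5:148399905-148400154, minus strand): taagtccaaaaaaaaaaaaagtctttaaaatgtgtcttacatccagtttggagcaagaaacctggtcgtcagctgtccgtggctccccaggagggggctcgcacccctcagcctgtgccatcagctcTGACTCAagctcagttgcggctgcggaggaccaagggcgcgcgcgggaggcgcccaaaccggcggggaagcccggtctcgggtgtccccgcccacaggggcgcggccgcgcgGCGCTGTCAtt

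In these letters, Slc7a11 held the amino acid response pattern in both orientations, at 66 to 59 bases and at 47 to 40 bases before the start, and Slc7a1 held the AP-1 pattern at 123 to 117 bases and the antioxidant pattern at 11 to 3 bases. Of the 29 tested members, 19 had an entry with upstream sequence, in 28 windows because some genes have several start sites. Slc6a6, Slc7a2, Slc1a5 and Slc7a5 were among those without an entry, so their upstream sequence was not searched. Slc7a1 was the 1 gene of the 19 with the AP-1 pattern. That is 1 of the 28 windows, beside 4.46% of all 32817 windows of the same length. The amino acid response pattern was found upstream of Slc7a11 and Slc7a7, the latter at start sites not printed. It was in 3 of the 28 windows and in 3.45% of all windows. The antioxidant pattern stood upstream of Slc7a1, Slc7a6, Slc6a9 and Slc38a2 (5 of the 28 windows, 10.2% of all windows). The cyclic AMP pattern stood upstream of Slc38a6 (1 of the 28 windows, 1.55% of all windows). The patterns do not overlap in the printed sequences. A match describes the letters only, and sequence beyond these windows was not searched.

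The heavy chain Slc3a2 and the 4 light chains tested with it were lower in c-FOS cells, as were 33.4% of all genes tested. Slc3a2, the heavy chain 4F2hc (CD98), had 261 and 260.1 CPM in control and 228 and 223 CPM in c-FOS libraries. The replicates lay within a few CPM of each other, and the fall was 0.21 ± 0.04 (SE) on the log2 scale (edgeR adjusted p = 0.000175). Slc3a1, the heavy chain of kidney and gut carriers, had between 0.5 and 5 counts per library and was not tested.

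Among the light chains that pair with Slc3a2, the 4 tested genes were all lower. Slc7a6, the y+LAT2 chain, which exchanges arginine for glutamine, had 154 and 152 CPM against 118 and 115 CPM, and fell by 0.40 ± 0.04 (SE) on the log2 scale (edgeR adjusted p = 9.39e-07). Slc7a5, the LAT1 chain that imports leucine and other large neutral amino acids, had 102 and 99.8 CPM against 86.7 and 84.0 CPM. It fell by 0.24 ± 0.04 (SE) on the log2 scale (edgeR adjusted p = 0.000177). In both genes every c-FOS library was below every control library. Slc7a7, the y+LAT1 chain, had 3.43 and 3.10 CPM against 1.73 and 1.81 CPM, and fell by 0.88 ± 0.18 (SE) on the log2 scale (edgeR adjusted p = 0.000622). The fourth, Slc7a11, is given above. Slc7a8, the LAT2 chain, was not tested, with 6 and 3 counts in control and 5 and 8 counts in c-FOS libraries, and Slc7a10 had none.

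Per gene length, Slc7a6 and Slc7a5 made up nearly all of the light chain transcript in both groups. Slc7a5 took 43.1% and 42.9% in the control and 46.6% and 46.5% in the c-FOS libraries. Slc7a6 took 51.6% ± 0.185 and 50.2% ± 0.0984 (SD, n = 2 per group), and Slc7a11 took 3.18% ± 0.137 and 1.72% ± 0.132. The summed light chain level went from 67.0 ± 0.744 to 52.4 ± 1.11 CPM per kilobase. Slc3a2 transcript exceeded the summed light chains in every library, with a ratio per gene length of 1.51 and 1.53 in control and 1.67 and 1.69 in c-FOS libraries. These shares and ratios are descriptions, since an exact permutation test of 2 against 2 libraries cannot give a p below 0.333.

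Carriers of cationic amino acids, which supply arginine, lysine and ornithine, were tested in 3 of 3 cases. Slc7a1, which encodes CAT1 and whose upstream sequence is printed above, was the main one, with 236 and 254 CPM in control and 215 and 207 CPM in c-FOS libraries. The groups did not overlap, and the fall was 0.22 ± 0.04 (SE) on the log2 scale (edgeR adjusted p = 0.000526). Slc7a3, which encodes CAT3, had 0.958 and 0.846 CPM against 1.19 and 1.55 CPM and rose by 0.63 ± 0.26 on the log2 scale (edgeR adjusted p = 0.0457). Its call was lost in DESeq2 (adjusted p = 0.302), with library totals (0.104), with upper-quartile factors (0.0675), without control replicate 2 (0.139), c-FOS replicate 1 (0.0521) or c-FOS replicate 2 (0.377). The range over all its alternatives was 0.0441 to 0.377. Slc7a4 and Slc7a14, related genes without a settled substrate, had at most 1 count in any library.

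Glutamate and aspartate carriers of the Slc1a family differed in direction. Against the fall of Slc1a3, Slc1a1, which encodes EAAT3, had 2.69 and 2.68 CPM in control and 3.49 and 3.89 CPM in c-FOS libraries. Both c-FOS libraries were above the control libraries, and the rise was 0.46 ± 0.15 (SE) on the log2 scale (edgeR adjusted p = 0.0189). The call was lost in DESeq2 (adjusted p = 0.192), with library totals (0.0812) and without c-FOS replicate 2 (0.163), within a range of 0.0104 to 0.192. In the GENCODE M21 gene models, 31.9% of the Slc1a1 exon bases lie opposite an exon of 4430402I18Rik, and without strand information reads of the pair cannot be told apart. Slc1a2, which encodes the main glutamate carrier of brain, had 1.5 and 0.5 counts in control and 9 and 7 counts in c-FOS libraries. It was below the filter, and passed when no filter was used (adjusted p = 0.0133). Slc1a6 was at 0 counts, Slc1a7 had 1 count in 1 c-FOS library, and the aspartate and glutamate light chain gene Slc7a13 was at 0 counts.

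The exchangers of small neutral amino acids and glutamine also moved apart. Slc1a4, which encodes ASCT1, a carrier of alanine, serine and cysteine, had 95.6 and 96.6 CPM in control and 126 and 132 CPM in c-FOS libraries. It rose by 0.43 ± 0.04 (SE) on the log2 scale (edgeR adjusted p = 7.26e-07), with no overlap between groups. Slc1a5, which encodes ASCT2, a glutamine exchanger that many tumour lines use, had 11.4 and 11.6 CPM against 7.60 and 7.75 CPM and fell by 0.58 ± 0.09 (SE) on the log2 scale (edgeR adjusted p = 0.000116). In this line Slc1a5 was a minor transcript: Slc1a4 made up 72.4% ± 1.42 of the Slc1a family per gene length in control and 86.4% ± 0.195 in c-FOS cells (SD, n = 2 per group), and Slc1a5 12.3% ± 0.179 and 7.31% ± 0.124.

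Sodium-coupled glutamine and small neutral amino acid carriers of the Slc38a family moved in both directions. Slc38a2, which encodes the system A carrier SNAT2, had 942 and 963 CPM in control and 792 and 789 CPM in c-FOS libraries. It fell by 0.27 ± 0.04 (SE) on the log2 scale (edgeR adjusted p = 1.56e-05), and the c-FOS libraries lay below both control libraries. By mean level per length over the 4 libraries it was second to Slc6a6. In the c-FOS libraries alone the 2 genes were level, at 170.8 and 170.1 CPM per kilobase for Slc38a2 and 170.7 and 171.4 for Slc6a6. Slc38a1, which encodes SNAT1 of the same system, had 296 and 301 CPM against 342 and 334 CPM, and rose by 0.18 ± 0.04 (edgeR adjusted p = 0.000596), but by 0.04 with library totals, where it did not pass (adjusted p = 0.301). Slc38a10, a less characterised member, had 282 and 275 CPM against 333 and 337 CPM. It rose by 0.27 ± 0.04 on the log2 scale (edgeR adjusted p = 2.05e-05).

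Slc38a7 and Slc38a9 act at the lysosome, where SNAT7 exports glutamine and SNAT9 reports arginine to mTORC1, and neither passed. Slc38a7 had 83.1 and 76.0 CPM in control against 83.3 and 84.8 CPM in c-FOS libraries, a log2 fold change of 0.08 with a 95% interval of -0.02 to 0.19 (edgeR adjusted p = 0.158), but it passed without control replicate 1 at 0.15 (adjusted p = 0.00195, range over alternatives 0.00195 to 0.77). Slc38a9 had 20.3 and 23.0 against 22.2 and 22.2 CPM, a log2 fold change of 0.04 with an interval of -0.13 to 0.21 (edgeR adjusted p = 0.69), and its sign turned with library totals (-0.10), with upper-quartile factors (-0.02) and without control replicate 1 (-0.05). Control replicate 1 was the higher control library for Slc38a7 and the lower for Slc38a9. Slc38a6 did not pass either, at 0.19 with an interval of -0.11 to 0.50. The system N genes Slc38a3 and Slc38a5 were at 0 counts in all 4 libraries.

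Both tested carriers of the Slc36a family rose, as did 33.8% of all genes tested. Slc36a4, a carrier of proline and tryptophan that does not need protons, had 23.0 and 25.9 CPM in control and 33.2 and 34.1 CPM in c-FOS libraries, a rise of 0.46 ± 0.07 (SE) on the log2 scale (edgeR adjusted p = 7.31e-05). Slc36a1, a proton-coupled carrier of small neutral amino acids at lysosomes and the cell surface, had 69.4 and 68.0 against 77.2 and 78.6 CPM and rose by 0.18 ± 0.04 (edgeR adjusted p = 0.002), but did not pass with library totals (0.04, adjusted p = 0.364). In both genes the groups were separate. The kidney and testis genes Slc36a2 and Slc36a3 were at 0 counts.

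Among the remaining Slc6a carriers, Slc6a8, which imports creatine, had 302 and 266 CPM in control and 231 and 245 CPM in c-FOS libraries. It fell by 0.25 ± 0.05 (SE) on the log2 scale (edgeR adjusted p = 0.000811), and by 0.16 without control replicate 1, the highest library. Slc6a9, the glycine carrier GlyT1, had 55.1 and 50.8 against 63.9 and 62.1 CPM and rose by 0.25 ± 0.05 (edgeR adjusted p = 0.000761), but not with library totals (0.11, adjusted p = 0.0625). In the GENCODE M21 models 27.8% of its exon bases lie opposite exons of Ccdc24. Slc6a15, a carrier of branched-chain amino acids and proline, had 15.9 and 14.2 against 18.0 and 17.2 CPM and rose by 0.22 ± 0.09 (edgeR adjusted p = 0.0321). That call was lost in DESeq2 (adjusted p = 0.155), with library totals (0.37), with upper-quartile factors (0.11), and without control replicate 2 (0.146), c-FOS replicate 1 (0.162) or c-FOS replicate 2 (0.0579), within a range of 0.00272 to 0.37.

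Slc6a2, the noradrenaline carrier, had 1.19 and 0.607 CPM in control and 0.431 and 0.791 CPM in c-FOS libraries. The groups overlapped, and the gene did not pass (log2 fold change -0.56, interval -1.40 to 0.29, edgeR adjusted p = 0.222). Without control replicate 2 it passed as lower (-0.98, adjusted p = 0.0141), and without control replicate 1 the log2 fold change was 0.01 (adjusted p = 0.982). The dopamine carrier gene Slc6a3, the GABA carrier genes Slc6a11 and Slc6a13, the glycine carrier gene Slc6a5 and the imino acid carrier genes Slc6a20a and Slc6a20b were at 0 counts in every library.

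Of the Slc43a family, Slc43a2, which encodes the large neutral amino acid carrier LAT4, was tested. It had 19.4 and 19.4 CPM in control and 21.4 and 20.7 CPM in c-FOS libraries, and did not pass (log2 fold change 0.12, interval -0.04 to 0.28, edgeR adjusted p = 0.164). With library totals its log2 fold change was -0.02. Slc43a1, which encodes LAT3, and Slc43a3, a nucleobase carrier, had at most 1.5 counts in any library. Slc7a6os, the tested row that is not a transporter, had 28.2 and 31.0 against 25.6 and 26.9 CPM and was lower by 0.17 on the log2 scale, log2 fold change -0.17 ± 0.07 (edgeR adjusted p = 0.0434). That call was lost in DESeq2 (adjusted p = 0.194) and without control replicate 2 (0.241), c-FOS replicate 1 (0.257) or c-FOS replicate 2 (0.0853), within a range of 0.00131 to 0.257. In GENCODE M21 its exons do not overlap those of Slc7a6.

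In all, 37 rows were not tested. Of these, 22 had 0 counts in all 4 libraries, where the limit that a count of 0 allows, 3 counts, is 0.0958 to 0.108 CPM per library. The other 15 had at most 0.324 CPM in any library. At this depth the line showed transcripts of 28 transporter genes at a level that passed the filter. Of the 15 with any count, Slc1a2 was the 1 that passed when no filter was used. Those of the 15 whose only count was 0.5 were rounded to 0 and were not tested even then.

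Counts by family are to be read against the 33.8% higher and 33.4% lower among all genes tested, and no family was tested as a set. In the Slc7a family, 7 of 8 tested rows, Slc7a6os among them, were lower and 1 was higher (median log2 fold change -0.32). The Slc6a family had 4 higher, 2 lower and 1 that did not pass of 7 tested (median 0.22), the Slc1a family 2 higher and 2 lower of 4 (median -0.07), and the Slc38a family 2 higher, 1 lower and 3 that did not pass of 6 (median 0.13). Both tested Slc36a genes were higher, the 1 tested Slc3a gene was lower and the 1 tested Slc43a gene did not pass. With library totals the number higher was 2 in the Slc6a family and 1 each in the Slc1a, Slc36a and Slc38a families, and 0 in the Slc7a family. Without c-FOS replicate 2 the number higher was 1 in the Slc1a family.

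Summed over 63 genes, the transporter level per gene length was 1053 and 1027 CPM per kilobase in control libraries and 852 and 855 in c-FOS libraries. The Slc6a family went from 449 ± 22.1 to 303 ± 3.80 CPM per kilobase (SD, n = 2 per group), the Slc38a family from 333 ± 1.52 to 318 ± 0.501, and the Slc7a family from 102 ± 1.02 to 82.5 ± 1.66. The 3 most abundant genes, Slc6a6, Slc38a2 and Slc3a2, held 62.6% ± 0.119 of the total in control and 50.3% ± 0.258 in c-FOS cells. The Slc36a family went up from 17.5 ± 0.172 to 20.9 ± 0.314 and the Slc1a family from 33.9 ± 0.900 to 38.3 ± 1.16. The ratio of c-FOS to control kept its side of 1 under TMM, RLE, library totals and upper-quartile factors for these 5 families, and for Slc43a it was 1.09 with TMM and 0.988 with library totals. These sums were not tested.

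**Figure D3:**
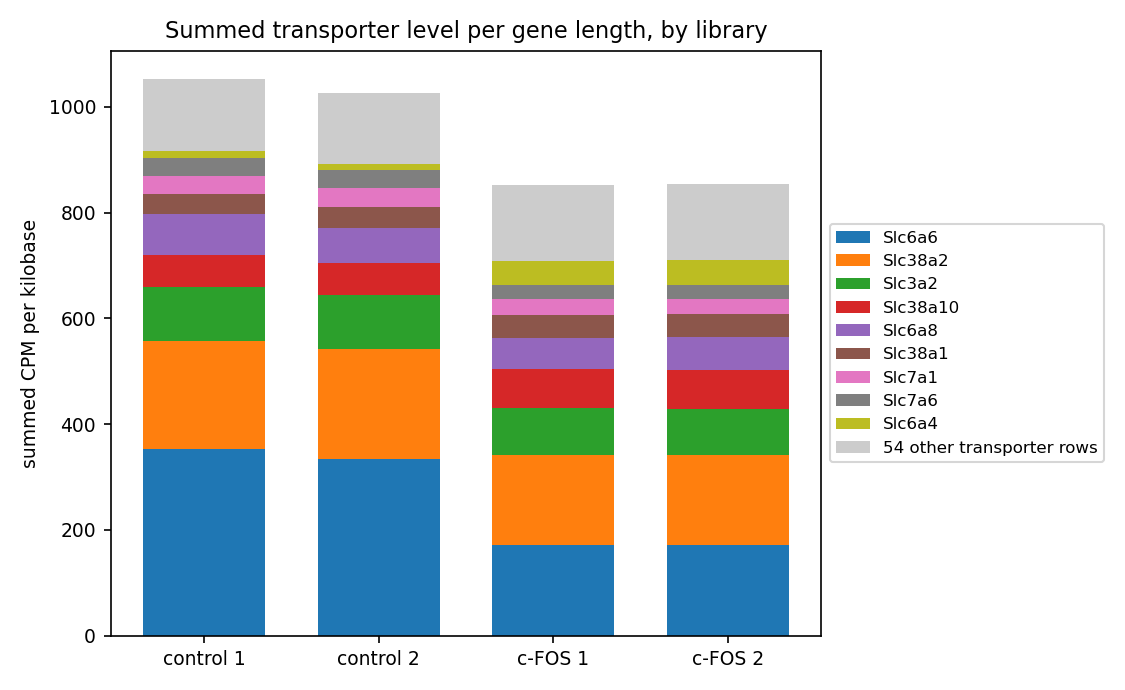
Summed transporter level in each library, as counts-per-million per kilobase of gene model, stacked by gene for the 9 most abundant genes and the 54 others together. The c-FOS bars reach 852 and 855 against 1053 and 1027 in control, the Slc6a6 block is lower, and the Slc6a4 block is taller.

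Genes that use, make or sense the transported amino acids were taken as 7 lists, and their counts are to be read against the 33.8% higher and 33.4% lower among all genes tested. The share that passed in either direction was 75% for the glutamine and glutamate list, 71.4% for lysosomal sensing, 66.7% for other carriers and 62.5% for the serine, glycine and cysteine list, beside 67.2% of all genes. It was 81.5% for the ATF4 response, 78.6% for arginine and polyamines and 54.5% for the branched-chain and aromatic list. Among enzymes of glutamine and glutamate, 6 of 16 tested were higher, 6 lower and 4 did not pass (median log2 fold change -0.04). Glul, glutamine synthetase, was at 75.8 ± 1.35 CPM without and 13.6 ± 1.01 CPM with c-FOS (SD, n = 2 per group) and fell by 2.47 on the log2 scale. Glud1, glutamate dehydrogenase, rose by 0.53 on the log2 scale. Gpt, an alanine aminotransferase, fell by 0.63. With library totals, 10 of this list were lower.

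Of the enzymes of serine, glycine and cysteine, 9 of 16 tested were lower, 1 was higher and 6 did not pass (median -0.29). Cbs and Cth, which make cysteine from homocysteine, fell by 2.87 and 1.33 on the log2 scale, to 0.878 ± 0.0548 CPM and 3.48 ± 0.722 CPM (SD, n = 2 per group). Of the carriers given above, the cystine importer Slc7a11 fell, while Slc1a4, which carries cysteine among others, rose by 0.43. Whether these changes are linked was not tested. Gclc and Gclm, the subunits of the glutathione-forming ligase, were lower (-0.48 and -0.42), and were picked after their values were seen. Shmt1, serine hydroxymethyltransferase, was lower as well (-1.71). Gcsh, a subunit of the glycine cleavage system, rose by 0.50. The single higher call became 4 without control replicate 1, 3 without control replicate 2 and 2 without c-FOS replicate 2.

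In the arginine and polyamine list, 8 of 14 tested genes were higher, 3 lower and 3 did not pass (median 0.29). Arg1, arginase, stood at 5.09 ± 0.0694 CPM (SD, n = 2) in control cells and rose by 2.82 ± 0.08 (SE) on the log2 scale. The nitric oxide synthase gene Nos1 went from 6.56 ± 0.190 to 21.0 ± 1.82 CPM, a rise of 1.68 on the log2 scale. Nos3, another nitric oxide synthase, fell by 1.11 and Amd1, of polyamine synthesis, fell by 0.73 on the log2 scale. Of the branched-chain and aromatic enzymes, 3 of 11 tested were higher and 3 lower (median -0.01, and 6 lower with library totals). Bcat2, a branched-chain aminotransferase, rose by 0.69 and Fah, of tyrosine breakdown, by 1.25, while Dbt and Bckdhb, subunits of the branched-chain ketoacid dehydrogenase, fell by 0.47 and 0.44 on the log2 scale.

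Genes of the ATF4 amino acid response, which is induced when amino acids run short, went both ways: 13 of 27 tested were higher, 9 lower and 5 did not pass (median 0.10). Nupr1 rose by 2.95 and Chac1, a glutathione-degrading enzyme, by 1.72 on the log2 scale, whereas Ddit4, an inhibitor of mTORC1, fell by 1.55 and Cth by 1.33. Asns, asparagine synthetase, did not pass (-0.04), and Atf4 itself was higher by 0.26. Among genes of lysosomal amino acid sensing, 14 of 35 tested were higher, 11 lower and 10 did not pass (median 0.04, and 6 higher with library totals). The arginine sensor Castor1, listed as Gatsl3, fell by 1.66 and Sesn3, of the leucine-sensing sestrin family, by 0.98. Fnip1, a partner of folliculin, rose by 0.47 and the Rag GTPase gene Rragc by 0.41 on the log2 scale.

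Of carriers of amino acids or peptides outside the 7 families, together with 2 partner proteins, 7 of 15 tested were higher, 3 lower and 5 did not pass (median -0.03). Slc17a8, a vesicular glutamate carrier, rose from 0.353 ± 0.0708 to 1.89 ± 0.133 CPM and Mfsd12, which brings cysteine into lysosomes and melanosomes, from 25.4 ± 2.52 to 42.6 ± 0.523 CPM (SD, n = 2 per group). Slc25a13, the mitochondrial aspartate-glutamate carrier citrin, fell by 0.52 and Slc15a2, a peptide carrier, by 0.46 on the log2 scale. With library totals 4 were higher and 6 lower, and without control replicate 1 there were 5 lower.

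**Figure D4:**
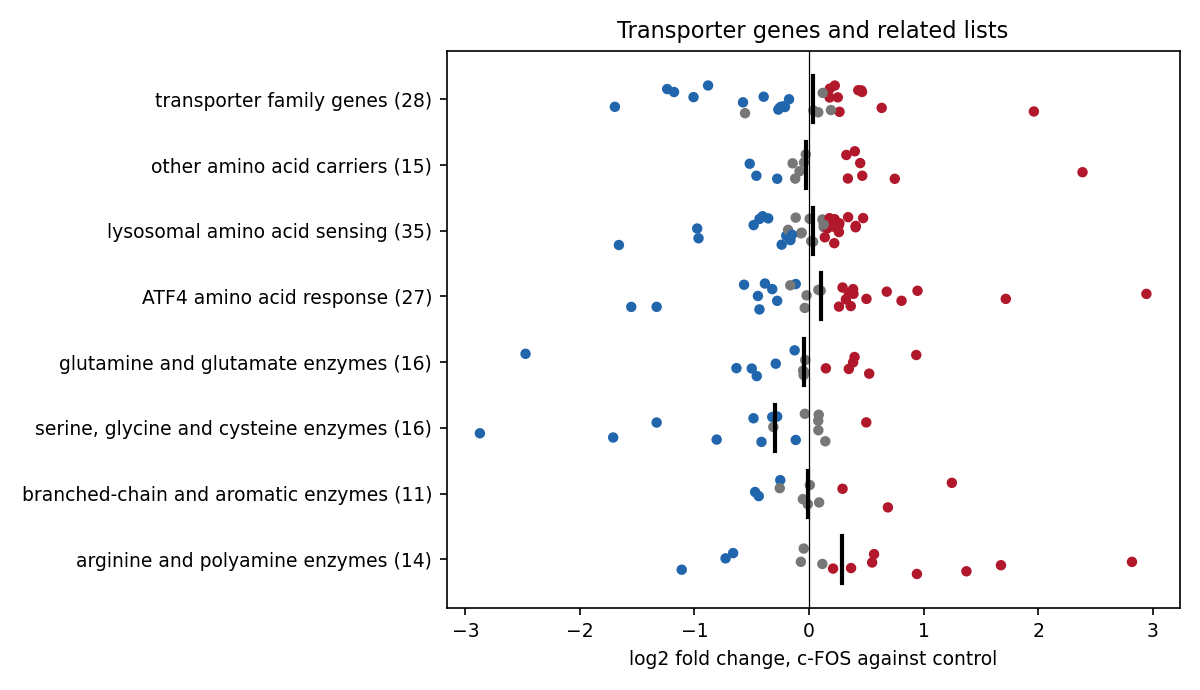
Log2 fold change of c-FOS against control for the tested transporter family genes without Slc6a7 (28) and for the tested genes of the 7 related lists (number in brackets), coloured red where higher, blue where lower and grey where the gene did not pass. Black lines are medians, that of the transporters over all 29. The medians lie between -0.29 and 0.29, with single genes between -2.87 and 2.95.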

How the data were processed

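RNA-seq counts of 4 libraries (2 control, 2 c-FOS) were analysed. Per the labels' protocols, total RNA from adherent cells was made into libraries with an Illumina TruSeq kit. Per the series design text reads were aligned with TopHat and analysed with HOMER, and the submitters' processing notes name the build mm9 and DESeq2. Tool versions, annotation and the strand setting were not given in the sources used here. Counts were as the authors deposited them, unnormalized expected counts per gene symbol, in steps of 0.5, with gene model lengths. Where a symbol stood on 2 rows, the row with more counts was kept. Values were rounded to whole numbers for testing only.

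The test was edgeR 4.0.16 (R 4.3.3): TMM factors, filterByExpr (minimum count 10, minimum total 15), quasi-likelihood test without covariates, two-sided, Benjamini-Hochberg adjustment over 12780 genes at 0.05. The scripts were tested on simulated data. SE is derived from the F statistic, and CPM uses effective library sizes. DESeq2 1.42.0, other scalings, other filters, a threshold of 0.01, the replicate block and leaving out each library were alternatives. Full values were given for members that passed with a log2 fold change of at least 1, the top member of each family and the heavy and light chains, and, of each list, the 2 highest and 2 lowest genes that passed; other members by shorter values. A few genes that this rule or a list would name are not reported here. Genes named beyond this rule (Csad, Gclc, Gclm, Asns, Atf4 and the marker genes) were chosen after their values were seen. Members and lists were chosen with earlier results of these data known. Floors cover counting error only. Upstream sequences are from RefSeq (GRCm38.p6); protein sequences were not used here.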

Additional observations from a re-analysis of the deposited data

How the results depend on the processing

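With libraries scaled by their totals alone, 5 members were higher (main value 11), and the number higher was 1 in the Slc1a, Slc36a and Slc38a families, 2 in Slc6a and 0 in Slc7a. In the related lists that setting gave 4 higher and 6 lower among other carriers, 6 higher in lysosomal sensing, 10 lower among glutamine and glutamate enzymes and 6 lower among branched-chain and aromatic enzymes. It turned the log2 fold change of Slc43a2 to -0.0177, of Slc38a7 to -0.0566 and of Slc38a9 to -0.0990, and upper-quartile factors turned that of Slc38a9 to -0.0247. This setting divides by totals without a factor for composition. Of the calls in either direction among all genes, the share in the higher direction was 35.4% with it. That share was 50.4% with TMM and 42.9% with upper-quartile factors. The 1 higher Slc7a call, Slc7a3, was lost (0 higher) with upper-quartile factors, the filter of 50 counts, DESeq2, a threshold of 0.01 and the replicate block, and the Slc1a family had 1 higher in DESeq2 and at 0.01. The serine, glycine and cysteine list had 2 higher with RLE factors, with no filter and in DESeq2. For Slc7a3 the filter removed the gene; other causes were not tested. Leaving out 1 library gave 8 to 12 members higher and 12 to 13 lower, 0 to 1 higher in Slc7a, 1 to 2 higher in Slc1a, 3 to 5 lower among other carriers, 1 to 4 higher in the serine list, and log2 fold changes of -0.0487 to 0.136 for Slc38a9 and -1.06 to 0.0123 for Slc6a2. The replicate numbers pair nothing in the labels, and the deviations of same-numbered libraries correlated at -0.0842 across genes; with the replicate number as a block, 10 members were higher and 13 lower, and 4243 genes were higher and 4210 lower over all genes tested, with the call of Slc7a3 (adjusted p = 0.0530) the 1 member call lost. Of the 29 members, 29 kept sign and side of the threshold with RLE factors and 25 in DESeq2. The 37 untested members had at most 22 counts over the 4 libraries, and 22 of the 37 had 0 counts in every library. Whether limited depth or absence of the transcript left them untested was not tested.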
